A study of Mus musculus with 21 samples.

Results

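The 84 genes described here encode the subunits of the mitochondrial oxidative phosphorylation machinery that are carried in the nuclear genome. They were chosen by symbol alone: Nduf genes of the a, b, c, s and v series for complex I, Sdha to Sdhd for complex II, Uqcr genes for complex III, Cox4 to Cox8 genes for complex IV and Atp5 genes for complex V, without pseudogene symbols. The sorted-cell table held 82 of them among 27968 genes and the coculture table held 83 among 22899, of which 82 carried values, and 81 were in both. In the sorted-cell table they comprised 36 genes of complex I, 4 of complex II, 8 of complex III, 17 of complex IV and 17 of complex V. The symbol rule also took in Atp5s and Atp5sl, which are not stable parts of complex V, Cox7a2l, a factor that helps respiratory complexes join into supercomplexes, and Ndufa4, which is now placed in complex IV but is counted here with complex I.

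RNA-seq covered 21 libraries, 3 per group, from a system in which mouse pluripotent stem cells form hematopoietic colonies in a 3D self-assembling peptide matrix and are then cultured on a supporting layer. Of the 15 sorted-cell libraries, 3 were mESC (129/ola, kept on mouse embryonic fibroblasts and sorted for SSEA-1), and 3 each were D5-LSKCD201+ and D5-LSKCD201- cells (129/ola, day 5 on OP9). The remaining 6 were FL-LSKCD201+ cells from the liver of C57BL/6 embryos and BM-LSKCD201+ cells from the marrow of young adult C57BL/6 mice. LSK cells lack lineage markers and carry Sca-1 and c-kit, and CD201 is the endothelial protein C receptor, which enriches hematopoietic stem cells. The 6 coculture libraries held total cells sorted on day 5 from the layer of OP9, a mouse bone marrow stromal line (3D+OP9), or from 0.1% gelatin (3D+0.1%gelatin), both 129/ola. Strain followed the split between cultured cells and cells taken from mice, so strain and source cannot be told apart. The study calls the libraries of each sorted group biological replicates. For the coculture libraries the labels do not say whether they came from separate cultures, and p-values there may measure technical spread only.

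Oxidative phosphorylation passes electrons from NADH through complex I, or from succinate through complex II, to complex III and then by cytochrome c to complex IV, which reduces oxygen. Complexes I, III and IV pump protons, and complex V, the ATP synthase, makes ATP as protons return. Most subunits are nuclear genes transcribed in every cell, some core subunits of complexes I, III, IV and V are encoded by mitochondrial DNA (mtDNA) instead, and several complex IV subunits exist as tissue isoforms for heart and skeletal muscle, testis or lung. Adult bone marrow stem cells are known for relying on glycolysis more than the dividing progenitors of the fetal liver do.

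Values are FPKM, which scale the fragments of a gene to its transcript length and to the mapped fragments of the library, and changes are differences of log2(FPKM + 1), which understate the change of low genes. A gene was called changed with a limma adjusted p under 0.05 and an absolute log2 change of at least 1, and a gene with the adjusted p alone is said to have risen or fallen without being called. With 3 libraries against 3, an exact permutation test of a gene on its own cannot give a two-sided p below 0.1. In bulk RNA, fewer cells of a type and less RNA per cell cannot be told apart. The read depth behind the FPKM values is unknown. Many of these genes have near-identical copies elsewhere in the genome, and how reads shared between such copies were counted is not given, so their levels are uncertain to that extent. In addition, 28 of the 84 members share exon bases with another annotated gene, among the genes named below mainly Uqcrc2 (19.7% of its exon bases), Atp5o (18.1%), Ndufb11 (12.9%), Cox5a (12.8%) and Atp5j (12.7%).

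Of the genes behind the sorting markers, Procr, which encodes CD201, was at 57.9 to 61.9 FPKM in D5-LSKCD201+, 66.6 to 69.4 in FL-LSKCD201+ and 117 to 123 in BM-LSKCD201+, against 3.02 to 3.82 in D5-LSKCD201- and 2.23 to 2.67 in mESC. Fut4, which encodes an enzyme that can make the SSEA-1 epitope, was lowest in mESC and highest in marrow, at 0.118 to 0.318 FPKM in mESC and 2.87 to 3.44 in BM-LSKCD201+. Whether it makes the epitope that mESC were sorted for was not tested. Ptprc, the pan-leukocyte marker CD45, was at 64.3 to 71.6 FPKM in BM-LSKCD201+ and 38.4 to 52.1 in FL-LSKCD201+, but at 0.305 to 0.602 in D5-LSKCD201+, where the endothelial marker Cdh5 was at 67.6 to 73.6. D5-LSKCD201- kept the pluripotency gene Dppa5a at 2580 to 2990 FPKM, against 4534 to 5022 in mESC and at most 22.2 in D5-LSKCD201+. Of the 11 erythroid genes listed as markers, the summed level was 22748 to 46548 FPKM in FL-LSKCD201+ and 311 to 402 in BM-LSKCD201+. Of the 6 hepatocyte markers, the sum was 469 to 632 in FL-LSKCD201+ against 106 to 112 in BM-LSKCD201+, with Alb at 63.0 to 73.7 in the fetal liver libraries and at or below 0.0823 in the marrow. The 6 macrophage markers summed to 607 to 664 in FL-LSKCD201+, 407 to 435 in BM-LSKCD201+ and at most 42.4 in the other sorted groups, and the 5 megakaryocyte markers to 82.3 to 89.2, 52.0 to 69.0 and at most 48.0. The 10 stromal markers summed to 94.6 to 100.4 FPKM in D5-LSKCD201+, 39.5 to 73.8 in D5-LSKCD201- and at most 15.4 in the other sorted groups, the 6 preadipocyte markers reached at most 47.2 in any sorted library, and the 8 cardiac and skeletal muscle markers were at 64.9 to 101.7 in D5-LSKCD201- and lower in every other sorted library. The part of these cell types in the members' levels was not tested.

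Several libraries stood apart from the other two of their group, and FL-LSKCD201+ replicate 1 stood apart most. Its members lay 0.84 log2 units (median) below the mean of the other two fetal liver libraries, while the median over all genes was 0.0043. The drop followed transcript length: members under 1 kb lay 0.99 lower and those of 1 kb and over 0.065 lower, and all genes under 1 kb lay 0.52 lower. BM-LSKCD201+ replicate 1 showed a similar pattern, with members 0.32 lower and all genes under 1 kb 0.28 lower. Members under 1 kb lay 0.38 lower there and those of 1 kb and over 0.19 lower, the latter more than in the fetal liver library. The members are short transcripts, with a median of 731 bases against 2038 for all genes, and 57 of the 84 are under 1 kb. Not every member fell in the fetal liver library: Sdha, the flavoprotein of complex II, was at 174 FPKM there and at 104 and 101 in the other two, and Ndufs1, an iron-sulfur subunit of complex I, at 78.6 against 62.2 and 63.2. The erythroid markers summed to 22748 FPKM in FL-LSKCD201+ replicate 1 and to 46548 and 45074 in replicates 2 and 3. The part of transcript length or of erythroid RNA in the lower levels was not tested. Counts and medians in fetal liver and marrow are therefore also given without these libraries, for the members and, in part, for the other gene lists. Replicates 2 and 3 of FL-LSKCD201+, 2 and 3 of BM-LSKCD201+, 1 and 3 of D5-LSKCD201- and 1 and 2 of 3D+OP9 lay closer to each other than to the third library of the group. Whether any of these pairs are technical repeats is not known here, and if they are, fewer than 3 independent samples stand behind the SDs and p-values of those groups. Counting each such pair as 1 sample was therefore an added alternative.

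The members together made up 2.86% ± 0.054 (SD, n = 3) of all FPKM in mESC, 2.89% ± 0.058 in D5-LSKCD201-, 2.68% ± 0.084 in D5-LSKCD201+, 2.79% ± 0.32 in FL-LSKCD201+ and 2.07% ± 0.14 in BM-LSKCD201+. The marrow share was the lowest in every library, at 1.91%, 2.15% and 2.16%, against 2.42% for the lowest library of any other sorted group, FL-LSKCD201+ replicate 1. In the coculture table, which was normalized separately, the share was 1.97% ± 0.040 in 3D+OP9 and 2.04% ± 0.032 in 3D+0.1%gelatin, and the ranges did not overlap. The median member had a mean level of 119 FPKM in mESC, 137 in D5-LSKCD201-, 122 in D5-LSKCD201+, 153 in FL-LSKCD201+ and 129 in BM-LSKCD201+, and Atp5b, the catalytic beta subunit of ATP synthase, was the highest member in all 7 groups.

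By complex, complex V set marrow apart from the other sorted groups in summed FPKM but not in medians. Its members summed to 6120, 6104 and 5933 FPKM in the mESC libraries, 5611, 5987 and 5944 in D5-LSKCD201-, then 5269, 4923 and 5097 in D5-LSKCD201+, 4748, 6271 and 6103 in FL-LSKCD201+, and 3210, 3867 and 3879 in BM-LSKCD201+. In these sums all 3 marrow libraries lay below every other sorted library. The complex V medians of log2(FPKM + 1) overlapped. They were 7.51, 7.89 and 7.89 in marrow, 7.93, 7.75 and 7.86 in D5-LSKCD201+ and 7.94, 7.95 and 7.84 in mESC. Atp5b carried much of the difference in sums between mESC and marrow, at 2021, 2052 and 2022 FPKM in mESC and 662, 749 and 750 in BM-LSKCD201+. Between fetal liver and marrow its difference was smaller, with 1277, 1284 and 1265 in FL-LSKCD201+. Complex II was highest in fetal liver, at 813, 787 and 788 FPKM against 536 to 594 in marrow and 535 to 613 in all other sorted libraries. The complex II medians were also highest there, at 7.68, 7.34 and 7.33 against at most 7.21 in the other sorted libraries. Complexes I, III and IV overlapped between most groups once FL-LSKCD201+ replicate 1 was counted. Its complex IV sum was 1995 FPKM, the lowest of the 15 libraries, while the other two fetal liver libraries, at 4052 and 3951, were the highest.

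**Figure D1:**
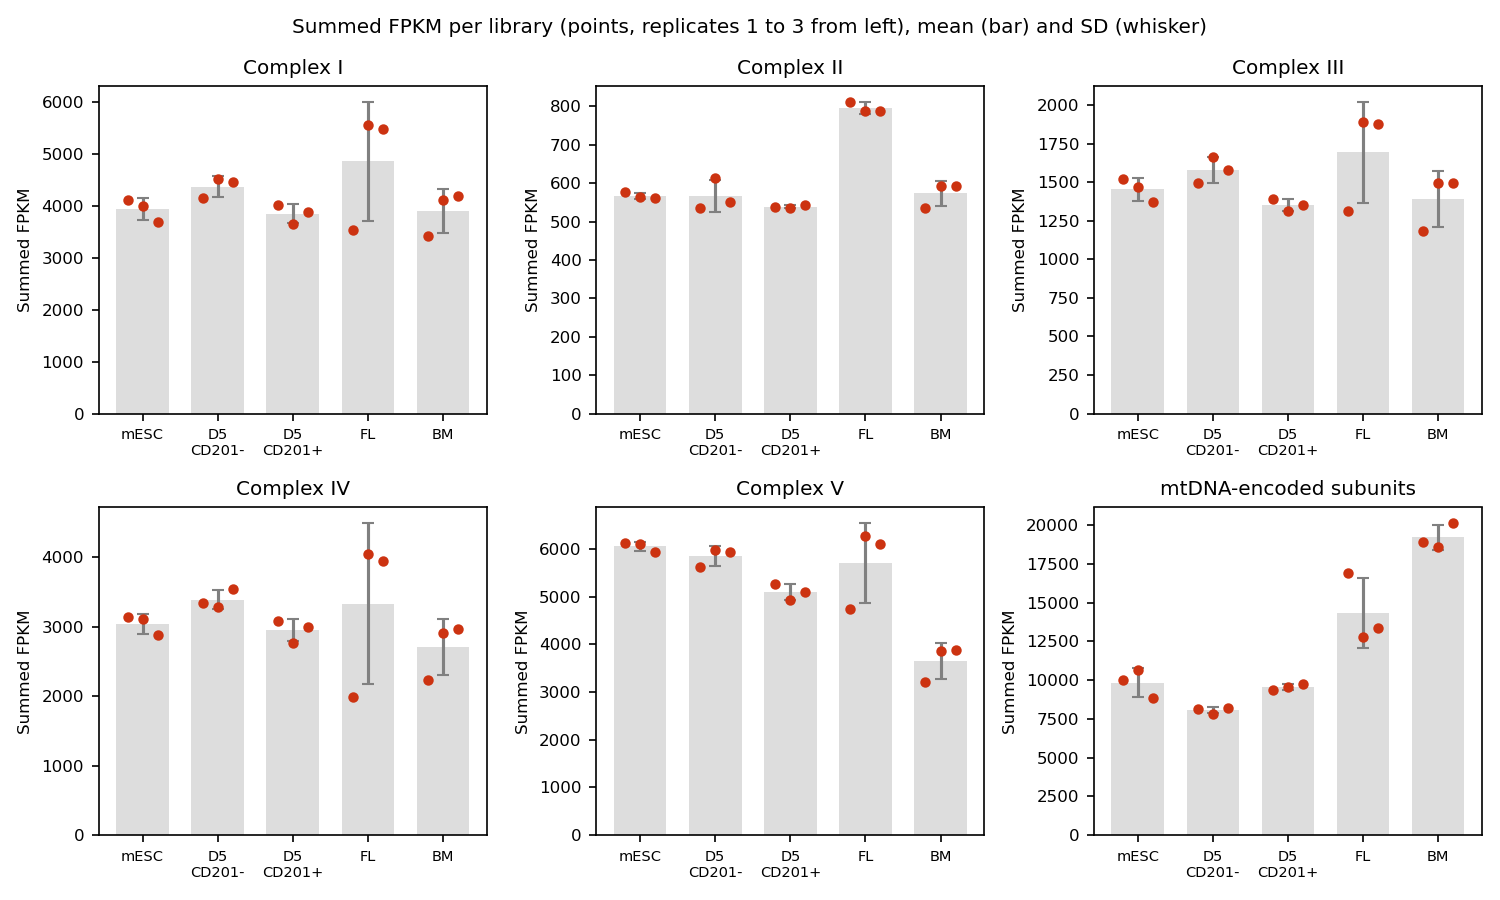
Summed FPKM of the members of complexes I to V and of the 13 mtDNA-encoded subunits (vertical axes, each starting at 0) in the 5 sorted-cell groups, with points for libraries, bars for means and whiskers for the SD. The marrow libraries are lowest for complex V (3210 to 3879) and highest for the mtDNA-encoded subunits (18601 to 20136), and replicate 1 of fetal liver lies below the other two for complexes I, III, IV and V.

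Across the 5 sorted groups, most members kept within a narrow range. In a moderated F-test, 25 of the 79 members tested had an adjusted p under 0.05 and a range of group means of at least 1, against 74.2% of all genes tested. By adjusted p alone the counts were 51 of 79 members and 13796 of 14457 genes. The median range between the highest and lowest group was 0.74 for members and 1.55 for all genes. Just inside the limit of 1 stood Ndufb11 and just outside it Ndufb10 (0.95), both accessory subunits of the membrane arm of complex I. FL-LSKCD201+ was the highest group for 33 members and the lowest for 1, BM-LSKCD201+ was the lowest for 37 and the highest for 10, D5-LSKCD201- was the highest for 17 and the lowest for 1, mESC the highest for 13 and the lowest for 23, and D5-LSKCD201+ the highest for 6 and the lowest for 17. The count of members past both limits was 28 without FL-LSKCD201+ replicate 1 (75.5% of all genes) and 19 without BM-LSKCD201+ replicate 1 (74.3%). The 4 widest ranges all belonged to complex IV: Cox4i2 (3.09), Cox7a2l (2.49), Cox7a1 (2.46) and Cox6b2 (2.42), followed by Cox5a (1.69), the nuclear subunit next to the catalytic core. The narrowest belonged to Atp5j (0.20), coupling factor 6 of the ATP synthase stalk, Ndufb7 (0.26), Atp5g2 (0.28), Cox5b (0.31) and Uqcrc2 (0.34). These ranges count FL-LSKCD201+ replicate 1, where Atp5j was at 191 FPKM against 319 and 310 in replicates 2 and 3. Ndufb7 was at 85.0 there against 205 and 204, Atp5g2 at 173 against 311 and 312, and Cox5b at 85.4 against 187 and 178. The ranges of single members without that library are not given here.

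**Figure D2:**
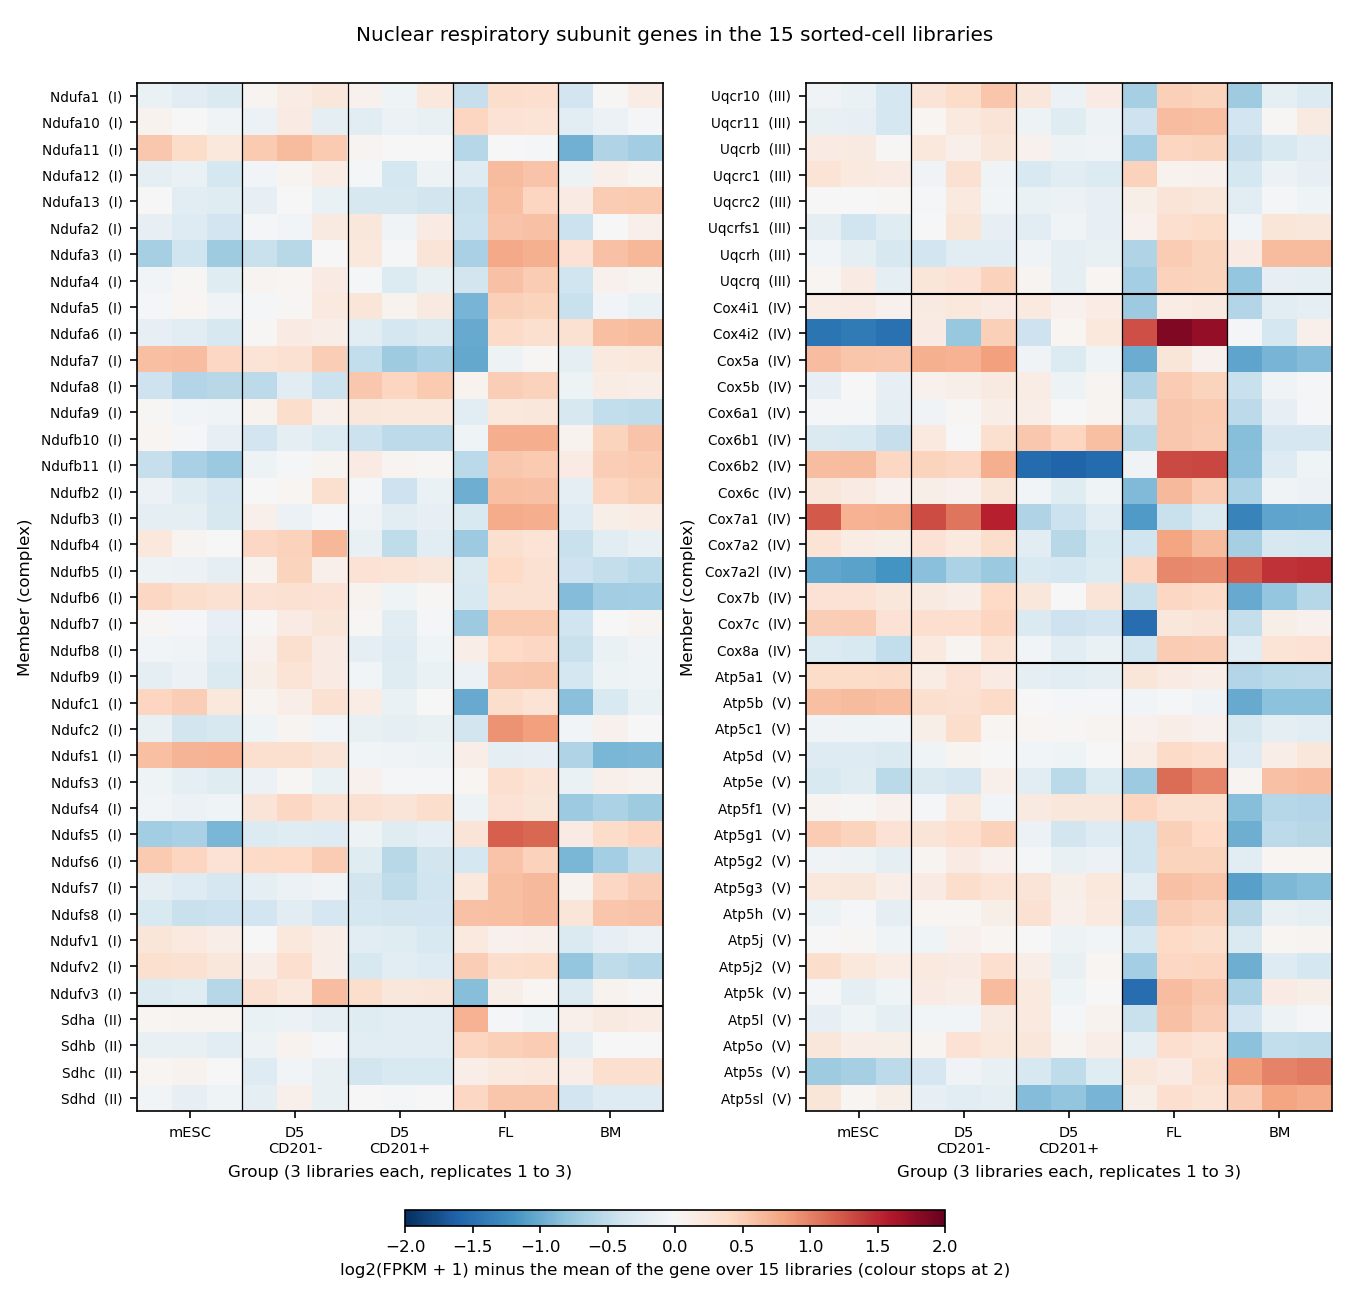
Level of all but 1 of the members tested (rows, grouped by complex) in the 15 sorted-cell libraries (columns), as log2(FPKM + 1) minus the mean of the gene over the 15 libraries, with colour ending at 2. Most rows are pale, the strongest colours are in Cox4i2, Cox6b2, Cox7a1 and Cox7a2l, and replicate 1 of FL is blue in many rows where replicates 2 and 3 are red.

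The isoform genes of complex IV carried the strongest patterns. Cox4i2 (GRCm38, chr2:152754173-152765037, plus strand) encodes the lung-enriched, hypoxia-responsive form of subunit 4. It was at 0.462, 0.507 and 0.427 FPKM in mESC, 3.51, 1.37 and 4.58 in D5-LSKCD201-, then 2.02, 3.12 and 3.65 in D5-LSKCD201+, 8.82, 13.4 and 12.6 in FL-LSKCD201+, and 2.97, 2.14 and 3.33 in BM-LSKCD201+. The fetal liver libraries were all above every other sorted library and the mESC libraries all below, while both D5 groups and marrow overlapped. Cox4i1, the common form, was at 441 to 843 FPKM, so Cox4i2 made up 1.71% ± 0.23 (SD, n = 3) of the pair in FL-LSKCD201+, 0.49% ± 0.14 in BM-LSKCD201+, 0.36% ± 0.11 in D5-LSKCD201+, 0.38% ± 0.20 in D5-LSKCD201- and 0.058% ± 0.0035 in mESC.

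Cox6b2 (chr7:4751792-4753094, minus strand) encodes the testis form of subunit 6b. It was at 43.2, 43.8 and 37.6 FPKM in mESC, 38.5, 37.4 and 46.9 in D5-LSKCD201-, then 8.98, 8.5 and 8.93 in D5-LSKCD201+, 26.5, 71.3 and 71.6 in FL-LSKCD201+, and 15.1, 23.1 and 26.2 in BM-LSKCD201+. The 3 D5-LSKCD201+ libraries were the lowest of the 15. Between D5-LSKCD201+ and mESC the common partner Cox6b1 ran the other way, at 378, 351 and 393 FPKM in D5-LSKCD201+ and 211, 210 and 188 in mESC. It did not do so over all groups: its mean, like that of Cox6b2, was higher in FL-LSKCD201+ (177, 378 and 369) than in BM-LSKCD201+ (143, 205 and 206). Cox6b2 was thus 2.30% ± 0.072 (SD, n = 3) of the pair in D5-LSKCD201+, 12.3% ± 0.68 in D5-LSKCD201-, 17.0% ± 0.30 in mESC, 15% ± 1.8 in FL-LSKCD201+ and 10.3% ± 0.90 in BM-LSKCD201+. This share does not depend on the scaling of a library, and FL-LSKCD201+ replicate 1, at 13%, lay near the 15.9% and 16.3% of the other two.

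Cox7a1 (chr7:30184144-30186078, plus strand), the heart and skeletal muscle form of subunit 7a, was low throughout. It was at 5.61, 3.53 and 3.59 FPKM in mESC, 5.96, 4.93 and 7.25 in D5-LSKCD201-, then 0.856, 1.09 and 1.40 in D5-LSKCD201+, 0.28, 1.07 and 1.3 in FL-LSKCD201+, and 0.110, 0.350 and 0.364 in BM-LSKCD201+. The 3 LSKCD201+ groups lay below both other groups in every library. Cox7a2, the common form, was at 95.4 to 261 FPKM.

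Cox7a2l (chr17:83501918-83517330, minus strand), the supercomplex assembly factor of the same family, rose step by step over the groups. It was at 88.1, 86.2 and 79.2 FPKM in mESC, 103, 118 and 109 in D5-LSKCD201-, then 148, 143 and 151 in D5-LSKCD201+, 243, 358 and 354 in FL-LSKCD201+, and 428, 498 and 512 in BM-LSKCD201+. No neighbouring groups in that order overlapped. The highest groups, FL-LSKCD201+ and BM-LSKCD201+, were also of another strain than the mESC and D5 cells. The part of strain in their Cox7a2l levels was not tested, and supercomplex assembly was not measured. Set against Cox7a2, Cox7a2l made up 33.0% ± 0.84 (SD, n = 3) of the pair in mESC, 37.3% ± 2.7 in D5-LSKCD201-, 55.5% ± 2.5 in D5-LSKCD201+, 61.9% ± 5.4 in FL-LSKCD201+ and 81.1% ± 0.71 in BM-LSKCD201+. The shares of D5-LSKCD201+ (53.2%, 58.1% and 55.1%) and FL-LSKCD201+ (68.1%, 57.8% and 60.0%) overlapped, and the fetal liver share was highest in replicate 1.

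With FL-LSKCD201+ replicate 1 counted, 3 of these genes had among the widest ranges of group means and Atp5j the narrowest. For that reason the sequences just before their start sites are shown. Each is the 250 bases upstream of the RefSeq start site in GRCm38.p6, printed 5′ to 3′ on the strand of the gene, with capitals for the matches to short promoter motifs searched on both strands. In Cox6b2 and Cox7a1 the capitals ATTGG are the CCAAT box (CCAAT) read on the opposite strand, and GGGCGG in Cox6b2 and Cox7a2l is the GC box. In Atp5j they are, in order, the cores used here for NRF1 (CGCATGCG), YY1 (AAGATGGC) and ETS factors such as GABP (CCGGAAG). RefSeq places the starts of Cox7a2l, Atp5j and Cox7a1 inside longer GENCODE genes, so that the whole printed stretch of Cox7a2l and of Atp5j and the last bases of the Cox7a1 stretch lie within the GENCODE gene. Cox4i2 had no entry in the promoter table.

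Cox6b2, chr7:4753095-4753344, minus strand: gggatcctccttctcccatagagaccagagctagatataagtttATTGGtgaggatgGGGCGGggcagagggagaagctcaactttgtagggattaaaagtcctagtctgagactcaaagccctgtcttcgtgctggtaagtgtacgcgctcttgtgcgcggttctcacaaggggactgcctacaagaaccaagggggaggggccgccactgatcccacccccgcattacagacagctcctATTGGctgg
Cox7a1, chr7:30183921-30184170, plus strand: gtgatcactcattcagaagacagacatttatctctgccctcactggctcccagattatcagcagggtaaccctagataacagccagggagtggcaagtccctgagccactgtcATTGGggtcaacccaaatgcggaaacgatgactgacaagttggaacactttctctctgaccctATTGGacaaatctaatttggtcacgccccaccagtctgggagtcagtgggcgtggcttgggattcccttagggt
Cox7a2l, chr17:83514334-83514583, minus strand: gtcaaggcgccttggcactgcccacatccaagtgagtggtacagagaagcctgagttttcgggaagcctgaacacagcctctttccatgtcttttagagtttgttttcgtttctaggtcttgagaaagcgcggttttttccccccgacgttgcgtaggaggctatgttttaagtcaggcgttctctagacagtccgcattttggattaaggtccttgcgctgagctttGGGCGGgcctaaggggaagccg
Atp5j, chr16:84834977-84835226, minus strand: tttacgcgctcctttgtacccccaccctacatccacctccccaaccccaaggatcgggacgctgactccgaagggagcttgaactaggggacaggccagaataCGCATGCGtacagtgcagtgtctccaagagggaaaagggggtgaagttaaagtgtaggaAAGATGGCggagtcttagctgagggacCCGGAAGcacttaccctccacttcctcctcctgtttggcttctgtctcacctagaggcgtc

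In these printed stretches the CCAAT matches begin 206 and 9 bases before the start in Cox6b2 and 137 and 74 bases before it in Cox7a1, and the GC box begins 193 bases before the start in Cox6b2 and 22 bases before it in Cox7a2l. The Atp5j matches begin 147, 88 and 61 bases before its start. The start of Gabpa, which encodes the DNA-binding subunit of GABP, lies 148 bases away on the opposite strand, so that the upstream stretch of Atp5j also holds the start of Gabpa. A promoter entry of 300 bases, 250 before and 50 after the start, was found for 66 of the 84 members. Among these, 9 (13.6%) held the NRF1 core, 16 (24.2%) the ETS core and 9 (13.6%) the YY1 core, where 1.87%, 8.86% and 2.75% of all 32851 promoter entries did. The CCAAT box was in 29 (43.9%) against 37.4%, and the GC box in 25 (37.9%) against 35.7%. A match is a description of the letters and not a bound site.

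**Figure D3:**
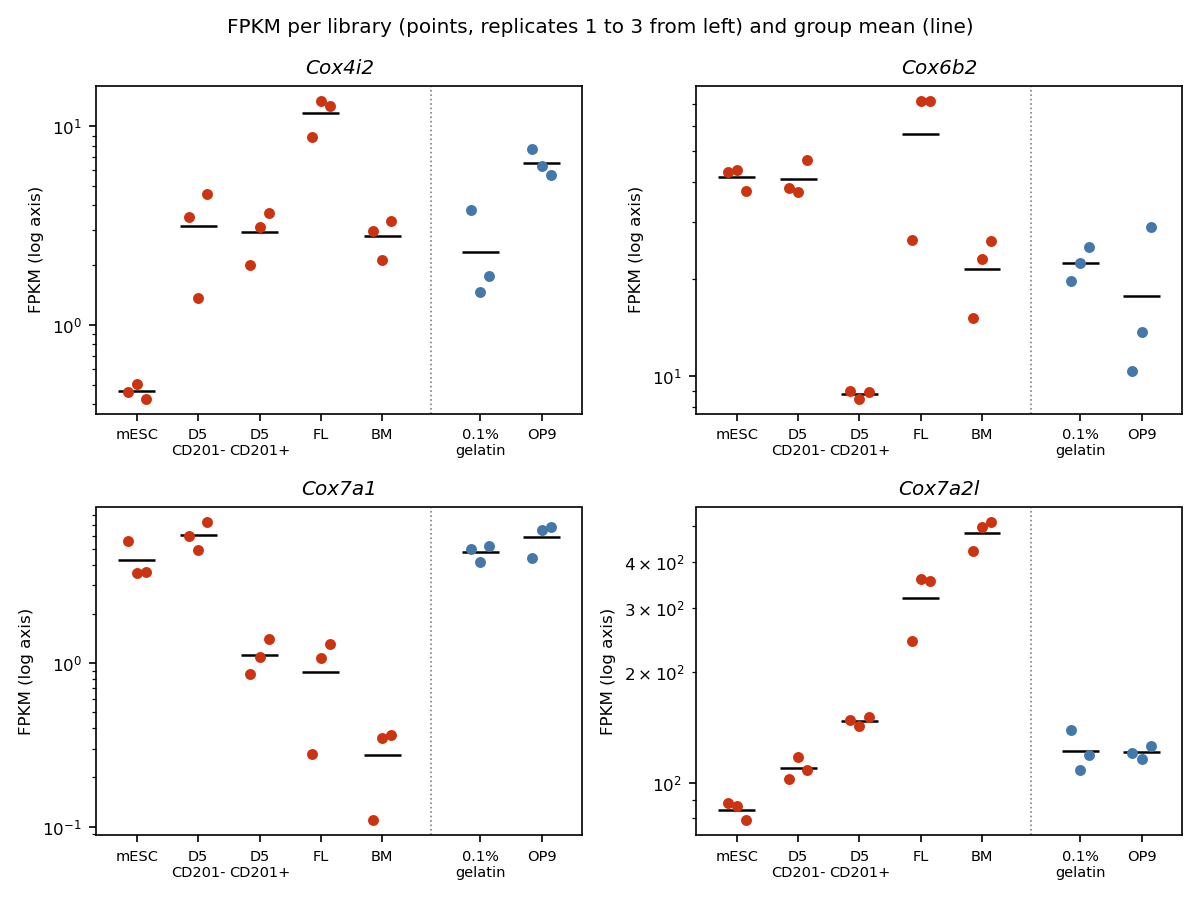
FPKM (log axis) of Cox4i2, Cox6b2, Cox7a1 and Cox7a2l in each library of the 5 sorted groups (red) and the 2 coculture groups (blue, normalized separately), with lines for group means. Cox6b2 is lowest in D5 CD201+ (8.5 to 8.98), Cox4i2 is highest in FL (8.82 to 13.4) and Cox7a2l climbs from mESC (79.2 to 88.1) to BM (428 to 512).

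The other muscle and testis forms were near or at 0. Cox6a2, the muscle form of subunit 6a, was at 0.317, 1.75 and 1.19 FPKM in FL-LSKCD201+ and otherwise listed at 0 in all sorted libraries but D5-LSKCD201- replicate 2 (0.238), beside Cox6a1 at 235 to 489. Cox7b2, a testis form, reached at most 0.667 FPKM in any sorted library, beside Cox7b at 42.2 to 115. Cox8c, the testis form of subunit 8, reached at most 0.337, and Cox8b, the muscle form, had values only in the coculture table, where it was listed at 0 in all libraries but 3D+0.1%gelatin replicate 3 (0.31). Cox8a was at 224 to 446 FPKM in the sorted cells. None of Cox7b2, Cox8b and Cox8c reached the mean of 0.5 FPKM needed for a test in any comparison. Among the 3 genes for the same membrane ring subunit of ATP synthase, Atp5g3 made up 54.6% ± 0.46 (SD, n = 3) in D5-LSKCD201+, 50.7% ± 0.49 in FL-LSKCD201+, 48.5% ± 1.2 in D5-LSKCD201-, 48.2% ± 0.88 in mESC and 38.1% ± 1.3 in BM-LSKCD201+. Atp5g1 held 32.3% ± 0.96 in mESC and 23.1% ± 0.65 in D5-LSKCD201+, and Atp5g2 held 35.6% ± 0.37 in marrow and 19.5% to 23.0% (group means) in the other sorted cells.

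D5-LSKCD201+ against D5-LSKCD201- cells compared fractions of day 5 LSK cells sorted by CD201. Cox6b2 and Cox7a1 were the 2 members called, both lower in D5-LSKCD201+, of 79 tested (24.7% of all genes tested were called). Cox6b2 fell by 2.09 (SE 0.096, adjusted p = 1.99e-06), to 0.215 of its mean FPKM in D5-LSKCD201-. Cox7a1 fell by 1.73 (SE 0.16, adjusted p = 5.57e-05). With the adjusted p alone, 35 members fell (39.6% of all genes did) and 4 rose (28.7%). Without D5-LSKCD201- replicate 2, 40 fell and 10 rose (46.3% and 31.6% of all genes), and one fit over all 5 groups gave 20 and 2 (38.2% and 28.4%). The 4 that rose were Ndufa8 (0.89), Ndufa3 (0.47), Cox7a2l (0.42) and Cox6b1 (0.36). The members' median change was -0.17, beside -0.12 for all genes tested. Falls were spread over the complexes: 16 of 36 tested in complex I, 2 of 4 in complex II, 5 of 8 in complex III, 7 of 14 in complex IV and 5 of 17 in complex V. Past the 2 called, the largest falls were in Ndufa7 (-0.96), Cox5a (-0.89) and the complex I subunits Ndufs6 (-0.81) and Ndufb4 (-0.80). When libraries were scaled to the same FPKM sum, 26 fell and 12 rose (35.9% and 31.5% of all genes) and the median was -0.092, and with quantile normalization, which moved the median of all genes by 0.10, 29 fell and 9 rose (35.8% and 33.4%). All 6 naive pluripotency markers also fell in this comparison (median -4.06) and all 5 endothelial markers rose (median 4.12). Of the cardiac and skeletal muscle markers, whose tissue Cox7a1 is named for, 4 of 6 tested fell and 1 rose (median -1.94). The part of these cells in the members' changes was not tested.

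Both D5 fractions were then set against mESC, which served as the shared second group. In D5-LSKCD201+ against mESC, 5 of 79 members were called (37.6% of all genes): Cox6b2 (-2.11, SE 0.066, adjusted p = 3.99e-09), Cox7a1 (-1.30, SE 0.16, adjusted p = 5.07e-05) and Ndufa7 (-1.15) were lower, and Cox4i2 (1.40, SE 0.15, adjusted p = 1.66e-05) and Ndufa8 (1.02) were higher. Ndufa7, an accessory subunit of the peripheral arm of complex I, was at 294, 295 and 258 FPKM in mESC and 137, 118 and 125 in D5-LSKCD201+. Ndufa8, an intermembrane-space subunit of complex I, was at 101, 89.5 and 91.3 in mESC and 196, 182 and 194 in D5-LSKCD201+. For neither gene did the groups overlap, but Ndufa8 stood just below the limit of 1 without mESC replicate 2 (0.99) or without D5-LSKCD201+ replicate 1. In all, 26 members rose by adjusted p (40.3% of all genes) and 29 fell (45.2%), and the members' median change was 0.0075, beside -0.075 for all genes. Its sign rests on single libraries, at -0.043 without D5-LSKCD201+ replicate 1, -0.0045 without replicate 3 and -0.023 without mESC replicate 3. One fit over all 5 sorted groups gave 12 risen and 19 fallen (36.4% and 39.7% of all genes). Several core subunits fell: Atp5b by 0.63, Atp5a1 by 0.56, Ndufs1 by 0.74, Cox5a by 0.72, Ndufv1 by 0.44, Uqcrc1 by 0.47, Sdhc by 0.37, Sdha by 0.28 and Uqcrc2 by 0.14. Others rose, Ndufs3 by 0.19 and Sdhd by 0.091 (adjusted p = 0.0395), and Sdhb (-0.045), Uqcrfs1 (0.13) and Cox5b (0.14) did not pass. Those that rose included Cox6b1 (0.88) and Cox7a2l (0.80). All 6 naive pluripotency markers fell here too (median -4.56), and all 5 endothelial (median 6.11) and all 8 stromal markers tested (median 2.42) rose. The part of these cells in the members' changes was not tested.

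In D5-LSKCD201- against mESC, Cox4i2 was the only member called of 79 (14.3% of all genes), at 1.42 (SE 0.29, adjusted p = 0.00486). Its mESC libraries, at 0.427 to 0.507 FPKM, lay near 0 at an unknown depth, so no ratio of FPKM is given. There were 31 members that rose by adjusted p (32.2% of all genes) and 7 fell (22.4%), with a median of 0.16 beside 0.046 for all genes. The risen numbered 17 without mESC replicate 3 (28.1% of all genes) and 13 in one fit over all 5 groups (31%). Over the alternatives the fallen numbered from 3 with the replicate block (19.8% of all genes) to 10 without D5-LSKCD201- replicate 2 (27.8%). Complex I gave 15 of the 31, led by Ndufv3 (0.74) and Ndufb11 (0.58), and the fallers included Ndufs1 (-0.36) and Atp5b (-0.28). Quantile normalization moved the median of all genes by -0.14 here and left the members' median at 0.11. The cardiac and skeletal muscle markers were also higher in D5-LSKCD201- (5 of 8 rose, none fell, median 2). All 8 stromal markers tested (median 1.74) and all 5 endothelial markers (median 1.67) rose too, and 4 of 6 naive pluripotency markers fell (median -0.80). The part of these cells in the members' changes was not tested. Cox7a1 in D5-LSKCD201- (4.93 to 7.25 FPKM) overlapped mESC (3.53 to 5.61), and Cox6b2 did too (37.4 to 46.9 against 37.6 to 43.8).

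The D5-LSKCD201+ cells were compared with LSKCD201+ cells from mouse tissue, and the 2 comparisons share the D5-LSKCD201+ libraries. Against FL-LSKCD201+, 5 of 80 members were called, all lower (34.7% of all genes were called): Cox6b2 (-2.42, SE 0.37, adjusted p = 0.000854), Cox4i2 (-1.69, SE 0.21, adjusted p = 0.000308), Atp5sl (-1.11), Cox7a2l (-1.08, SE 0.16, adjusted p = 0.000672) and Ndufs5 (-1.04). Atp5sl, a complex I assembly protein despite its symbol, was at 19.7, 20.8 and 18.8 FPKM in D5-LSKCD201+ and 40.1, 46.7 and 44.7 in FL-LSKCD201+. Ndufs5, an accessory complex I subunit, was at 44.8, 40.5 and 42.7 against 57.8, 112 and 108, where the fetal liver libraries were all higher but replicate 1 far less so. On the adjusted p, 22 fell (42.0% of all genes) and 0 rose (30.1% of all genes), with a median of -0.23 beside -0.16 for all genes. Without FL-LSKCD201+ replicate 1 the counts were 11 called, 67 fallen and 2 risen, where 48.9% of all genes fell and 35.7% rose, and the median was -0.48, while without replicate 2 or replicate 3 it was -0.069 or -0.078 with 3 called. Scaling to the same FPKM sum moved the median of all genes by 0.15 and gave 16 fallen (34.8% of all genes), 6 risen (33.1%) and 2 called, Cox6b2 and Cox4i2. Complex II fell most evenly, in 3 of 4 members (Sdhb -0.69, Sdhd -0.52 and Sdhc -0.51), whereas Sdha, at -0.43, did not pass (adjusted p = 0.10). For Sdha, leaving out single libraries gave -0.56 to -0.17. Of the markers, 9 of 11 erythroid (median -5.48) and 6 of 6 hepatocyte genes (median -5.21) were also lower than in FL-LSKCD201+, and their part was not tested. Ndufs5 and Cox7a2l lost their calls without FL-LSKCD201+ replicate 2 (-0.87 and -0.99) or replicate 3.

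Against BM-LSKCD201+, 6 of 79 members were called (44.7% of all genes). Cox7a2l (-1.69, SE 0.073, adjusted p = 4.17e-07), Atp5sl (-1.53), Atp5s (-1.31) and Cox6b2 (-1.16, SE 0.18, adjusted p = 0.000571) were lower, and Atp5g3 (1.14) and Cox6b1 (1.03) were higher. Atp5s, a coupling-factor-like protein, was low everywhere, at 4.34, 3.69 and 4.62 FPKM in D5-LSKCD201+ and 10.9, 12.3 and 12.6 in BM-LSKCD201+. Atp5g3 was at 547, 495 and 528 against 214, 245 and 253, with no overlap. A total of 29 rose by adjusted p (34.2% of all genes) and 20 fell (49.2%). The members' median was 0.043 beside -0.23 for all genes, and it was -0.051 without BM-LSKCD201+ replicate 1, with 30 risen (36.7% of all genes) and 32 fallen (51.2%), so its sign rests on that library. Scaling to the same FPKM sum moved the median of all genes by 0.16 and gave 48 risen (39.3% of all genes), 15 fallen (43.8%) and 9 called, with Cox6b2 no longer among them (-0.98). Cox6b1 was not called without BM-LSKCD201+ replicate 1 (0.86), without D5-LSKCD201+ replicate 3 or with quantile normalization, nor was Cox6b2 with the last. In complex V 9 of 17 rose, among them Atp5f1 (0.88), Atp5b (0.87), Atp5o (0.75) and Atp5a1 (0.36). In complex I 12 rose and 10 fell: Ndufs4 (0.99), Ndufa11 (0.78) and Ndufs1 (0.72) rose, and Ndufb10 (-0.85), Ndufs8 (-0.83) and Ndufa6 (-0.80) fell. All 5 pan-leukocyte markers were lower in D5-LSKCD201+ than in either tissue group (medians -4.43 and -5.15) and all 5 endothelial markers higher (3.84 and 4.64), and their part was not tested.

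FL-LSKCD201+ against BM-LSKCD201+ compared the same sort at fetal and adult stages. Of 80 members, 5 were called, all higher in fetal liver (19.1% of all genes were called): Cox4i2 (1.72, SE 0.19, adjusted p = 0.000276), Cox6b2 (1.26, SE 0.39, adjusted p = 0.0290), Atp5g3 (1.25), Atp5f1 (1.03) and Ndufv2 (1.02). Ndufv2, the iron-sulfur partner of the NADH-binding subunit, was at 136, 123 and 125 FPKM in FL-LSKCD201+ and 56.2, 68.0 and 65.0 in BM-LSKCD201+. Atp5f1, the b subunit of the ATP synthase stalk, was at 335, 308 and 309 against 136, 166 and 164, and for both genes replicate 1 was the highest of fetal liver and the lowest of marrow. By adjusted p alone 27 members rose (22.2% of all genes) and 3 fell (32.9%): Cox7a2l (-0.61), Atp5s (-0.72) and Atp5sl (-0.43). The members' median was 0.36 where that of all genes was -0.13, and 66 of 80 had a positive change.

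The median stayed positive in each alternative tried, while its size depended on the libraries that stood apart. It was 0.65 without FL-LSKCD201+ replicate 1 (11 called, 59 risen, beside 26.5% of all genes), 0.26 without BM-LSKCD201+ replicate 1 (2 called, 20 risen, beside 22.0%) and 0.52 without both (8 called, 67 risen, beside 33.2%). Without FL-LSKCD201+ replicate 2 or 3 it was 0.21 or 0.23, with 19 or 15 risen of 78 tested (18% or 17.5% of all genes), and without BM-LSKCD201+ replicate 2 or 3 the risen were 19 or 21 of 80 (18.4% or 18.3%). With the closest pairs averaged, 10 of 78 rose, beside 13.2% of all genes, and 1 fell, with a median of 0.27. The count of risen members thus rests on how these libraries are counted. By length, all genes under 1 kb had a median of -0.14 in this comparison, members under 1 kb 0.33 and members of 1 kb and over 0.43. Of the 5 called, Atp5g3 and Cox4i2 were called in every alternative. Cox6b2 lost its call without 1 of 4 libraries (FL-LSKCD201+ replicate 2 or 3, BM-LSKCD201+ replicate 1 or 2), with adjusted p from 0.0572 to 0.107. Atp5f1 and Ndufv2 fell below the limit of 1 without FL-LSKCD201+ replicate 1 (0.99 and 0.97), without BM-LSKCD201+ replicate 1 (0.94 for both) and without both (0.90 and 0.89), with adjusted p under 0.05 in each case. Atp5f1 also did with quantile normalization (0.99), and Cox6b2 lost its call with no filter on low values or with the closest pairs averaged. The core subunits rose in most cases: Atp5b by 0.83, Atp5a1 by 0.73, Sdhd by 0.80, Ndufs1 by 0.73, Sdhb by 0.53, Uqcrc1 by 0.41, and Ndufv1 and Uqcrc2 each by 0.32, whereas Sdha (0.05), Sdhc (-0.08), Uqcrfs1 (0.13), Cox5a (0.73) and Cox5b (0.30) did not pass. Without FL-LSKCD201+ replicate 1 the Sdha change was -0.20 (adjusted p = 0.017). All 11 erythroid markers were higher in FL-LSKCD201+ (median 5.39), as were 5 of 6 hepatocyte markers, and their part in the members' rise was not tested.

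**Figure D4:**
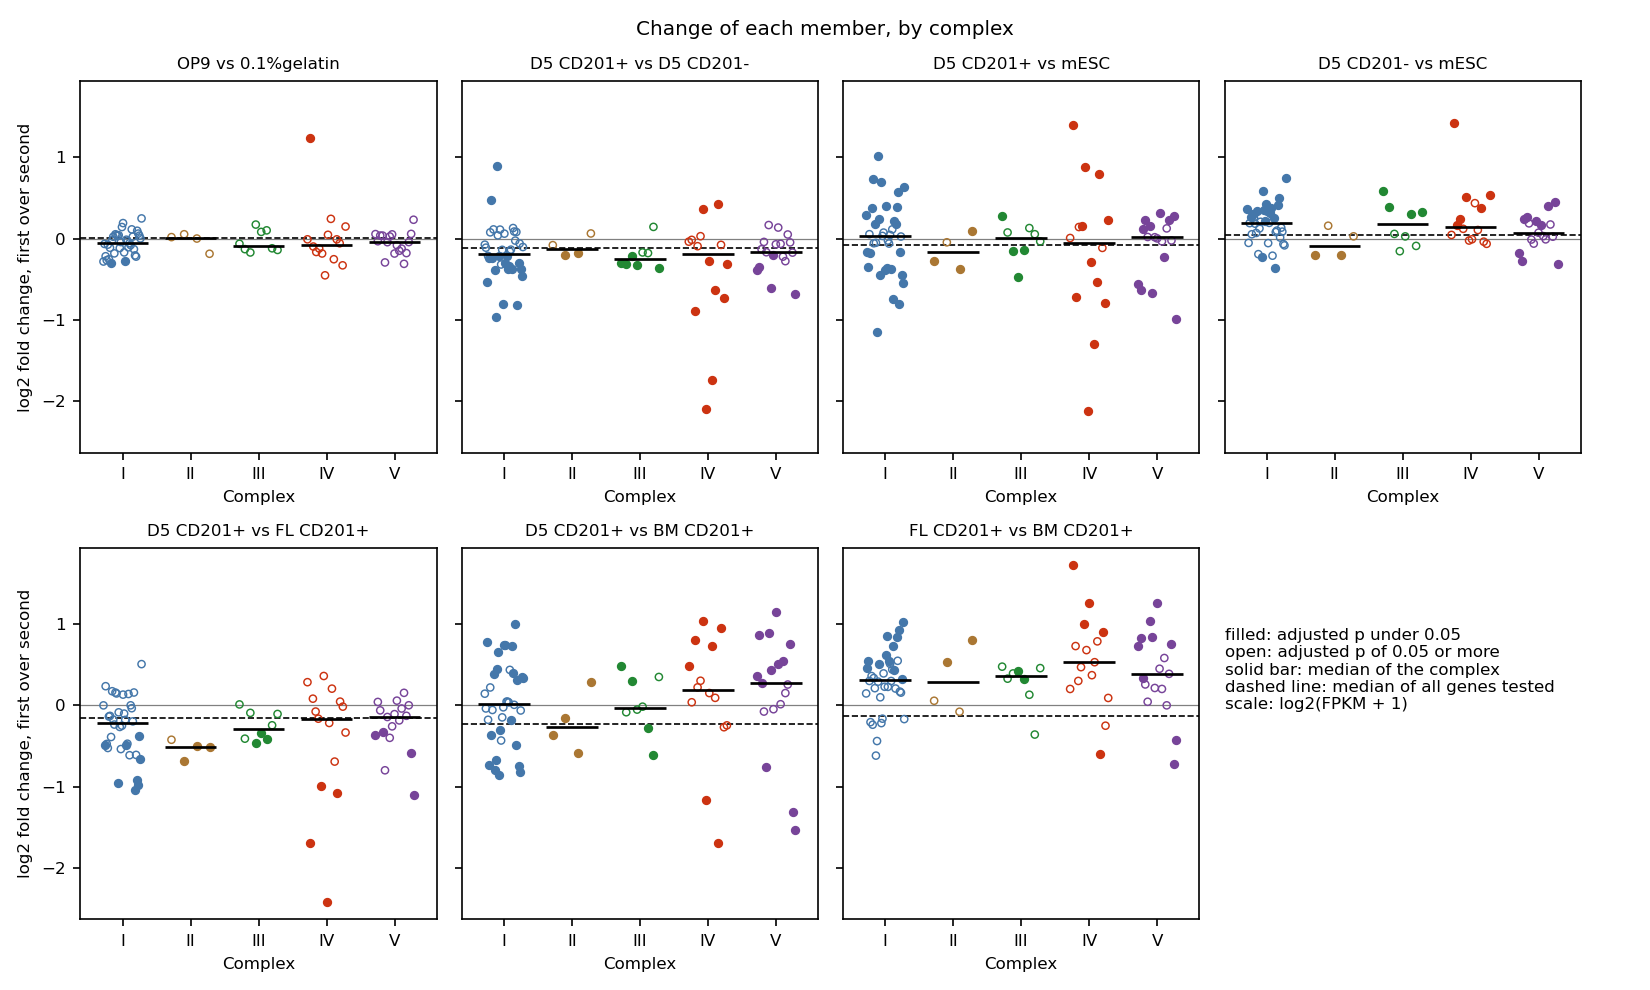
Log2 change of every member tested (points, filled with an adjusted p under 0.05) in the 7 comparisons, arranged by complex, with solid bars for the median of each complex and a dashed line for the median of all genes tested. Medians of all 5 complexes lie above the dashed line only in FL against BM and in no panel do they reach 1, and the points beyond 1 are mostly complex IV isoforms.

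3D+OP9 against 3D+0.1%gelatin compared total cells by supporting layer, and how many OP9 cells were among the former is not known here. Cox4i2 was the 1 member called of 79 (2.62% of all genes). It was at 7.70, 6.33 and 5.67 FPKM in 3D+OP9 and 3.78, 1.47 and 1.76 in 3D+0.1%gelatin. All 3 OP9 libraries were above all gelatin libraries. The change was 1.24 (SE 0.25, adjusted p = 0.0285). Without 3D+OP9 replicate 1 or 2, without 3D+0.1%gelatin replicate 2 or 3, with the closest pair of 3D+OP9 libraries averaged, or with no filter on low values, the direction stayed but the adjusted p was 0.0542 to 0.118. By adjusted p alone 1 member rose (4.61% of all genes) and 2 fell (2.27%), Ndufa4 (-0.30) and Ndufb7 (-0.28), but neither fall passed under any of the 3 scalings, with either other filter, with a constant prior, with the replicate block or with the closest pair averaged. Leaving out 1 library gave 0 to 7 fallen (0.53% to 6.89% of all genes), 7 of them without 3D+OP9 replicate 3 (6.89%). The median member changed by -0.044, beside 0.0098 for all genes, and the largest change past these was -0.45 (Cox6b2, adjusted p = 0.459). For Cox6b2, leaving out single libraries gave -0.86 to -0.16. Atp5b was at 802, 786 and 854 FPKM on OP9 and 814, 849 and 833 on gelatin. For Cox6b2 the groups overlapped, at 10.4, 13.7 and 29.0 FPKM on OP9 and 19.7, 22.5 and 25.2 on gelatin. The sums of stromal markers were 74.3 to 85.5 FPKM on OP9 and 44.8 to 55.8 on gelatin, and those of preadipocyte markers 9.12 to 14.6 and 6.04 to 8.38. Of the other marker lists, 8 of 9 erythroid and 5 of 5 endothelial genes rose on OP9, 4 of 6 naive pluripotency genes rose and 1 fell, and their part in the change of Cox4i2 was not tested.

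The 13 mtDNA-encoded subunits, measured in the sorted-cell table, did not follow the nuclear ones. They summed to 8849 to 10675 FPKM in mESC, 7841 to 8181 in D5-LSKCD201-, 9374 to 9734 in D5-LSKCD201+, 16924, 12780 and 13341 in FL-LSKCD201+, and 18894, 18601 and 20136 in BM-LSKCD201+. The ratio to the summed nuclear members was 1.58 ± 0.18 (SD, n = 3) in marrow, 0.93 ± 0.38 in fetal liver, 0.69 ± 0.035 in D5-LSKCD201+, 0.65 ± 0.045 in mESC and 0.51 ± 0.025 in D5-LSKCD201-. In fetal liver it was 1.36 in replicate 1 and 0.69 and 0.73 in the other two. In D5-LSKCD201+ against BM-LSKCD201+, 12 of 13 fell by adjusted p (49.2% of all genes did), 8 of them called (44.7% of all genes), and mt-Nd1 rose by 0.33 (median -1.19, and -1.23 without BM-LSKCD201+ replicate 1). In FL-LSKCD201+ against BM-LSKCD201+, 6 fell (32.9% of all genes) and 1, mt-Nd1, rose (22.2%), with a median of -0.66. Without FL-LSKCD201+ replicate 1 the falls numbered 9 (37.6% of all genes) and the median was -0.44, and without BM-LSKCD201+ replicate 1 they numbered 5 (32.2%). In D5-LSKCD201+ against D5-LSKCD201-, 7 rose (28.7% of all genes) and 0 fell (median 0.30). Against mESC 3 rose and 1 fell (median 0.054), where 40.3% and 45.2% of all genes did. D5-LSKCD201- against mESC gave 6 falls (22.4% of all genes, median -0.26). D5-LSKCD201+ against FL-LSKCD201+ gave 9 (42.0% of all genes, median -0.50), and 12 (48.9%) without FL-LSKCD201+ replicate 1.

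The subunits and electron carriers that the symbol rule leaves out were described from a list of 15. Ndufa4l2, a hypoxia-induced relative of Ndufa4, was at 47.7, 36.8 and 56.0 FPKM in 3D+OP9 and 19.1, 5.69 and 2.52 in 3D+0.1%gelatin (2.60, adjusted p = 0.0346). In the sorted cells it was at 47.0, 42.9 and 51.4 in D5-LSKCD201-, 20.8 to 24.1 in D5-LSKCD201+, 1.90 to 3.02 in mESC, 1.26 to 1.74 in FL-LSKCD201+ and 0 to 0.18 in BM-LSKCD201+. Cyct, testis cytochrome c, was at 4.15 to 4.57 FPKM in mESC and 5.49 to 6.77 in D5-LSKCD201-, against 0 to 0.255 in D5-LSKCD201+, a fall of 2.69 between the D5 fractions. Somatic cytochrome c, Cycs, was at 88.5, 87.6 and 90.7 FPKM in D5-LSKCD201+, 66.3, 76.3 and 74.3 in FL-LSKCD201+ and 29.5, 29.2 and 30.1 in BM-LSKCD201+. Cyc1, the cytochrome c1 subunit of complex III, was at 155 to 162 in D5-LSKCD201+, 239 to 280 in FL-LSKCD201+ and 103 to 127 in BM-LSKCD201+. Of 13 such genes tested, 1 rose and 9 fell in D5-LSKCD201+ against D5-LSKCD201-, where 28.7% and 39.6% of all genes did. Of 12 tested in FL-LSKCD201+ against BM-LSKCD201+, 5 rose (22.2% of all genes) and 0 fell (32.9%), with 9 risen (26.5%) and 1 fallen without FL-LSKCD201+ replicate 1 and 4 risen (22.0%) without BM-LSKCD201+ replicate 1.

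Among 50 assembly factors, which insert cofactors and join subunits, 18 rose and 2 fell of 48 tested in FL-LSKCD201+ against BM-LSKCD201+ (median 0.18), where 22.2% and 32.9% of all genes did. Without both first replicates 25 rose and 14 fell, beside 33.2% and 45.9%. In D5-LSKCD201+ against D5-LSKCD201- 5 rose and 18 fell of 49 (median -0.20), a share of falls near the 39.6% of all genes. Against mESC 12 rose and 28 fell of 49 in D5-LSKCD201+, beside 40.3% and 45.2% of all genes. Against BM-LSKCD201+ 9 rose and 22 fell of 49 (median -0.24), beside 34.2% and 49.2%, and without BM-LSKCD201+ replicate 1 they numbered 11 and 25 (median -0.27), beside 36.7% and 51.2%. In 3D+OP9 against 3D+0.1%gelatin 0 of 47 passed by limma, 7 with an unadjusted p under 0.05, where 891 of all 12958 genes passed and 2970 had an unadjusted p under 0.05. Of 17 TCA cycle genes, whose products supply NADH and succinate, 11 rose and 1 fell in FL-LSKCD201+ against BM-LSKCD201+ (median 0.47), with Cs, citrate synthase, at 0.98 and Idh2 at 0.47, beside 22.2% and 32.9% of all genes. Without both first replicates 11 rose and 4 fell (median 0.37), beside 33.2% and 45.9% of all genes. Between the D5 fractions 4 rose and 9 fell (median -0.30), beside 28.7% and 39.6%. In 3D+OP9 against 3D+0.1%gelatin 0 of 17 passed by limma, 0 with an unadjusted p under 0.05.

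The listed transcriptional regulators of respiration fell in D5-LSKCD201+ against mESC in 8 of 13 tested, beside 45.2% of all genes, with 1 risen (median -0.94). Nrf1, a main activator of these subunit genes, fell by 1.27, Gabpa by 1.29, Tfam, which packages and transcribes mtDNA, by 1.12, and Pprc1, a coactivator, by 1.94. Gabpa was at 19.0, 22.2 and 21.7 FPKM in mESC and 7.49, 8.02 and 8.39 in D5-LSKCD201+, while Atp5j, whose start lies head to head with that of Gabpa, was at 245, 246 and 228 and at 244, 225 and 233. The regulators were also lower in D5-LSKCD201+ than in FL-LSKCD201+, where 10 of 14 fell (median -0.67) beside 42.0% of all genes, and than in BM-LSKCD201+, where 12 of 15 fell and 1 rose (median -0.93) beside 49.2%. Without the first replicate of each tissue 11 of 14 fell in both (medians -0.79 and -0.93), beside 48.9% and 51.2%. Between the D5 fractions 6 of 13 regulators fell, beside 39.6% of all genes, and 1, Myc, rose (1.29). In FL-LSKCD201+ against BM-LSKCD201+ 2 rose and 3 fell of 15 (median -0.051), beside 22.2% and 32.9% of all genes, and without both first replicates 3 rose and 4 fell (median -0.13), beside 33.2% and 45.9%, while the nuclear subunits' median was 0.36. In 3D+OP9 against 3D+0.1%gelatin 0 of 14 passed by limma, 1 with an unadjusted p under 0.05, beside the same 891 and 2970 of 12958 genes.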

How the data were processed

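FPKM values were deposited by the authors as 2 tables, one for the 15 sorted-cell libraries and one for the 6 coculture libraries, normalized separately, so no test crossed them and levels were not compared between them. The submitters' processing notes name HISAT2 2.0.5, StringTie 1.3.3 and Cuffdiff 1.3.0, and the builds GRCm38 and mm9, without saying which table each belongs to. FPKM hold no counts, so no count model was fitted and depth, which sets precision, is unknown. Columns that matched no sample numbered 0.

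From the tables, limma 3.58.1 (R 4.3.3) with an intensity trend was fitted to log2(FPKM + 1) for genes whose mean in the compared libraries reached 0.5 FPKM, in 7 pairwise comparisons of 3 against 3 libraries and a moderated F-test over the 5 sorted groups. P-values were adjusted by Benjamini-Hochberg over all genes tested (12958 to 13775 in the pairs, 14457 in the F-test). The fits were tested on simulated data first. Sequences came from the RefSeq promoter table of GRCm38.p6 and gene spans from GENCODE on GRCm38, and Python 3.11.15 with matplotlib 3.10.9 drew the plots.

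Named were the members called in a comparison (the 4 largest each way where there were over 8), the isoform families, core subunits fixed by symbol, and the 5 widest and 5 narrowest ranges; genes outside this rule (mostly large changes short of a call, and list genes) were chosen after their values were seen. The values of 1 core subunit are not reported here, and it is part of the counts, sums and medians only. The members, gene lists and marker lists were chosen with earlier results of these data known. Several comparisons share a group (mESC, D5-LSKCD201+, FL-LSKCD201+ or BM-LSKCD201+) and are not independent. Same-numbered FL-LSKCD201+ and BM-LSKCD201+ libraries deviated together from their group means (r = 0.24, 0.20 and 0.16 over genes). The same-numbered marrow library was the best match for only 1 fetal liver library, so this does not show a pairing. Alternatives covered the pseudocount, the filter, scaling, the prior, a replicate block, 1 joint fit and leaving out each library; averaging the closest pair and leaving out the first tissue libraries, together or for the gene lists, were added after seeing the data.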

Additional observations from a re-analysis of the deposited data

How the results depend on the processing

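Members called under both limits were counted again under each alternative. With the adjusted p alone, the counts were 3 for 3D+OP9 against 3D+0.1%gelatin, 39 for D5-LSKCD201+ against D5-LSKCD201-, 55 for D5-LSKCD201+ and 38 for D5-LSKCD201- against mESC, 22 for D5-LSKCD201+ against FL-LSKCD201+, 49 against BM-LSKCD201+, 30 for FL-LSKCD201+ against BM-LSKCD201+ and 51 over the 5 sorted groups. Over all genes they were, in the same order, 891 of 12958, 9349 of 13691, 11496 of 13441 and 7418 of 13596. The rest were 9823 of 13627, 11486 of 13775, 7446 of 13503 and 13796 of 14457. Under both limits, the coculture count was 0 with no filter on low values and 0 with the closest pair averaged (305 and 267 of all genes). D5-LSKCD201+ against FL-LSKCD201+ gave 2 after scaling to the same FPKM sum and 3 with the closest pair averaged (4648 and 4666 of all genes). Scaling without mitochondrial and globin genes gave 10 for D5-LSKCD201+ against BM-LSKCD201+ and 8 for FL-LSKCD201+ against BM-LSKCD201+ (6051 and 2541 of all genes). In the latter, leaving out both first replicates also gave 8 (2824 of all genes).

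Leaving out each library in turn gave 0 to 1 for the coculture, 2 to 3 between the D5 fractions, 4 to 6 and 1 to 1 for D5-LSKCD201+ and D5-LSKCD201- against mESC, 3 to 11 and 5 to 8 for D5-LSKCD201+ against FL-LSKCD201+ and BM-LSKCD201+, 2 to 11 for FL-LSKCD201+ against BM-LSKCD201+ and 19 to 28 over the 5 groups. Of all genes, the same fits called, in the same order, 209 to 444, 3348 to 3412, 4997 to 5040 and 1910 to 1994. The rest gave 4650 to 4944, 6086 to 6186, 2514 to 2708 and 73.9% to 75.5%. Of 1372 alternatives for 86 named member changes, 1316 kept direction and side of the limits, 37 lost a call, 16 gained one and 3 changed sign: Sdha in FL-LSKCD201+ against BM-LSKCD201+ without FL-LSKCD201+ replicate 1 (-0.20, where leaving out single libraries gave -0.20 to 0.19) and without both first replicates (-0.22), and Sdhc there after scaling without mitochondrial and globin genes (0.031). The causes were not tested. With a replicate block, FL-LSKCD201+ against BM-LSKCD201+ again had 5 called (2607 of all genes). By adjusted p 37 members rose with it (22.8% of all genes) and 27 without it (22.2%). In the other comparisons same-numbered libraries did not deviate together in every pair (r from -0.20 to 0.29), so they share only a number. A pairing was not shown for FL-LSKCD201+ and BM-LSKCD201+ either. Unknown depth limits what can be said of Cox7b2, Cox8b and Cox8c.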
